A study of Arabidopsis thaliana with 24 samples.

Results

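Transposable element genes near the centromeres were followed in small RNA data of 13 mutant lines of Arabidopsis thaliana. The labelled libraries were made from inflorescences, and not every line has a label. A locus was a member when the authors' deposited table typed it as a transposable element gene and its locus number lay in 1 window around each of the 5 centromeres. This gave 1802 members of 14888 loci, with 279, 339, 400, 389 and 395 on chromosomes 1 to 5, and it left 186 transposable element genes on the chromosome arms. On the RefSeq TAIR10.1 assembly, which holds every member under its locus tag, they span 11753254 to 17681953 on chromosome 1, 1109237 to 7294681 on 2, 10461763 to 16647172 on 3, 1457798 to 6729975 on 4 and 9183055 to 16264465 on 5. Of the 10 members nearest to the window bounds 7 were listed in the line rrp4urt1dcl2het, at log2 fold changes of 0.50 to 1.32 in the authors' deposited table. Just outside the bounds, 7 of the 10 nearest transposable element genes were listed there too, at -0.48 to 1.77 in the authors' deposited table.

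All labelled plants were of ecotype Col-0, and the labels describe 24 libraries, 3 biological replicates for each of 8 genotypes. These are the wild type, the single mutants urt1-1, rrp4-2, heso1-4 and ski2-5, 1 double mutant (heso1-4/urt1-1), and as triple mutants rrp4-2/urt1-1/dcl2CRISPR and rrp4-2/urt1-1/heso1-4. Plants went to soil 10 days after germination and grew there for 4 weeks at 16 h light and 8 h dark, and each library was made from 1 μg of total inflorescence RNA. The study's design text writes heso1-1 for the double mutant where the labels write heso1-4. Of the 13 lines in the authors' deposited table, 5 carry the name of a labelled genotype (urt1-1, ski2-5, rrp4-2, the double mutant and rrp4-2/urt1-1/heso1-4, called the heso1 triple below). The lines ski2.2, urt1.2, heso1.3 and GKheso1 are named as further alleles of the same genes, and GKheso1 was not shown to be heso1-4. The lines rrp4urt1dcl2.B9 and rrp4urt1dcl2het carry the names of the 3 genes mutated in the labelled dcl2CRISPR genotype, but which of them that genotype is was not settled. The lines ski2urt1dcl2.107 and ski2urt1dcl2.123 have no label. For lines not matched to a label, the tissue, growth and number of replicates are not given. The reference of every comparison is not named and was taken to be the labelled wild type.

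Pericentromeric heterochromatin is packed with transposons that plants keep silent by DNA methylation. In the usual route RNA polymerase IV makes short precursors, RDR2 makes them double-stranded and DCL3 cuts them into siRNAs that guide methylation through AGO4. Transcripts of transposons that escape silencing can instead be turned into shorter siRNAs by RDR6 with DCL4 or DCL2. RRP4 is a core subunit of the RNA exosome, which degrades RNA from the 3' end, and SKI2 is a helicase of the complex that feeds RNA to the cytoplasmic exosome. URT1 and HESO1 add uridines to RNA 3' ends, URT1 mainly on mRNA and HESO1 mainly on small RNA and cleavage products, and DCL2 is a Dicer. The values used here hold no read lengths, so siRNA classes and decay fragments cannot be told apart. In whole inflorescences, fewer cells of a type and less RNA per cell cannot be told apart either.

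Only entries that the authors called at an adjusted p under 0.05 are in the authors' deposited table, with 1 log2 fold change per locus and line. It does not hold the libraries one by one, so their depth is unknown, and the sign ± below gives a standard error (SE) computed back from fold change and p-value. From 32432 loci in ski2.2 to 78096 in GKheso1 and heso1.3 had been tested. Judged by the p-values, the listing holds from 50.9% to 82.8% of the calls made in a line, so a member that is not listed in a line is not shown to be unchanged there. Because a locus enters only when called in some line, shares of the 1802 members are set beside the same share of all 14888 loci. All lines share their reference libraries, so values in several lines are not independent of each other.

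Members are genes of 148 to 15195 bases (median 2263) with a median GC content of 42.9% (28.8% to 57.0%). Their mean normalised count over all libraries ran from 4.48 to 4405 with a median of 140 in the authors' deposited table, or 3.54 to 2557 per kilobase with a median of 69.0. Many are copies of one another: a median of 52.9% of the 24-base words of a member occur once in the nuclear genome. No element class is given for them except in a few RefSeq notes, among which 7 members belong to Sadhu, a family of non-coding retrotransposons. Joining members with at least 80% identity over 80% of the longer gene gave 142 sequence families with 772 members, of which 21 families held 8 or more members (386 in all), while 1030 members joined no family. A read that fits several copies can be placed in any of them, and how such reads were counted is not given in the sources used here, so members of a family are not independent measurements.

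The following sequences of the first 300 bases of a gene, from RefSeq TAIR10.1, show the single elements and the families that the results turn on. Capitals mark bases inside a 24-base word that occurs more than once in the nuclear genome, so a run of lower case is a stretch with no second copy of that length. SADHU2-1 (AT1G35112, chr1:12840819-12841118, minus strand), SADHU3-2 (AT3G42658, chr3:14749995-14750294, minus strand) and AT4G03824 (chr4:1782462-1782761, plus strand) are the nearly unique members that stood highest in several lines.
SADHU2-1: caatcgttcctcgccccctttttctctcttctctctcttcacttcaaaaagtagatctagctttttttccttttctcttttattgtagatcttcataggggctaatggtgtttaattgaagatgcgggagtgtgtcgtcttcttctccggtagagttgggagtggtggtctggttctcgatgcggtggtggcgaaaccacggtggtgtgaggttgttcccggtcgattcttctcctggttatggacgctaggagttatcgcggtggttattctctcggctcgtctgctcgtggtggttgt
SADHU3-2: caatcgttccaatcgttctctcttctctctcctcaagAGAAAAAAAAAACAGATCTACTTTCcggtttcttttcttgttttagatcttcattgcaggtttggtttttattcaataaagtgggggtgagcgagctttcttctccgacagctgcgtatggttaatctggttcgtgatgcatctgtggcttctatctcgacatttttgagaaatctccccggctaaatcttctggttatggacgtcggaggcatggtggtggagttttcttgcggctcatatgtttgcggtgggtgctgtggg
AT4G03824: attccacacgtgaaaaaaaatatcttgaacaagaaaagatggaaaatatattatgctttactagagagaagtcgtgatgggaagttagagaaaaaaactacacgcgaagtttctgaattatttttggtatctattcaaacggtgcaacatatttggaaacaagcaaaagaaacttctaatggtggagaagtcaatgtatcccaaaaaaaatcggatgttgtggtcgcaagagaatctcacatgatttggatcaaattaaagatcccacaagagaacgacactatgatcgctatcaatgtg
The printed part of SADHU2-1 and of AT4G03824 holds no repeated word, and that of SADHU3-2 holds 25 repeated bases. In contrast, 98.7% to 99.7% of the printed bases lie in repeated words in AT1G36400 (chr1:13711163-13711462, plus strand), AT1G37160 (chr1:14182965-14183264, minus strand) and AT2G06250 (chr2:2449509-2449808, plus strand), each the first member by locus number of a family described below.
AT1G36400: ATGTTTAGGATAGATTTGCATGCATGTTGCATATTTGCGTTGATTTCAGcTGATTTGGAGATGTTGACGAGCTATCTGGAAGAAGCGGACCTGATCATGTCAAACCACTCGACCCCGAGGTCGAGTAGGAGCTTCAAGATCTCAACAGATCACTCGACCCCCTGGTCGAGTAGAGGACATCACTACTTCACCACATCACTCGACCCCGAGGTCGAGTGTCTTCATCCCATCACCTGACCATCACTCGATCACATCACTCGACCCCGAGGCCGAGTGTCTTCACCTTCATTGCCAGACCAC
AT1G37160: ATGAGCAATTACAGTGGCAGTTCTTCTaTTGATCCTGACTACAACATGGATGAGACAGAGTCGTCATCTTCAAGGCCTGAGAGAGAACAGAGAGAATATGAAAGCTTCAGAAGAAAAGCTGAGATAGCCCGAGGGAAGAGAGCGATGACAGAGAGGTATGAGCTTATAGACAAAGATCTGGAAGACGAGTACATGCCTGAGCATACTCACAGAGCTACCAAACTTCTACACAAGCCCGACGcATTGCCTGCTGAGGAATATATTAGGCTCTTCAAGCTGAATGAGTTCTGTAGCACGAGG
AT2G06250: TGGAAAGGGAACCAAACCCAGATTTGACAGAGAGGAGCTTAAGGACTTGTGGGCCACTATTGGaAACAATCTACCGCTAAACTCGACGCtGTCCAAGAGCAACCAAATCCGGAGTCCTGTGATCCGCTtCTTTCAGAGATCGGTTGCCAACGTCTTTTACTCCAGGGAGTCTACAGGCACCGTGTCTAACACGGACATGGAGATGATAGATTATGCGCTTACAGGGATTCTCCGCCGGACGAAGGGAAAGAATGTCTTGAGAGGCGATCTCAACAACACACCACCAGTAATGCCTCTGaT
AT2G05870 (chr2:2249700-2249999, minus strand) stands for an AT-rich family that was low in the heso1 triple, and AT3G29525 (chr3:11353842-11354141, minus strand) for a neighbouring pair of copies that was low in several lines.
AT2G05870: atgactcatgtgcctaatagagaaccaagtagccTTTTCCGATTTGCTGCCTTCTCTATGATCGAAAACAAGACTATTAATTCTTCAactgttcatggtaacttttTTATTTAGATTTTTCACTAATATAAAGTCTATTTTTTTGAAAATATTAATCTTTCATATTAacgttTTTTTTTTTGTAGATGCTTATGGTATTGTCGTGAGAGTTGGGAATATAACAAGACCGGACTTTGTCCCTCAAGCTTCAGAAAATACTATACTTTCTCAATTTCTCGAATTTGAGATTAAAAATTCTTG
AT3G29525: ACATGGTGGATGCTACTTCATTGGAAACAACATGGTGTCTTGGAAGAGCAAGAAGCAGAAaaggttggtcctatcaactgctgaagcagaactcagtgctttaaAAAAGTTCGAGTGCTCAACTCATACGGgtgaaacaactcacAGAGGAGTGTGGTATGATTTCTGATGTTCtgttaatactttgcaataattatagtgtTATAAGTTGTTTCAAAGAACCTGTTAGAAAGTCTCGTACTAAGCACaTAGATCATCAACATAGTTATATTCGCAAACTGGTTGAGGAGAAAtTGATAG

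The AT1G36400 sequence shown above holds 3 copies of an inverted repeat, ACTCGACCNNNNGGTCGAGT, in which arms of 8 bases that are reverse complements of each other flank any 4 bases. The word is its own reverse complement, so 1 search covers both strands. It was found in 82 of the 87 members of that family (94.3%), with a median of 2 and up to 5 copies, and in 76 of the 1715 other members (4.43%). Of 185583 consecutive windows of 642 bases, the median length of the family, across the 5 chromosomes, 0.192% hold it. The repeat was picked after this sequence had been read, and the match describes letters only.

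Small RNAs of the members were listed mostly as higher in the rrp4 lines, and few members were listed in the urt1 and heso1 mutants. In rrp4-2, 310 members were higher and 14 lower in the authors' deposited table, which is 17.2% and 0.777% of members beside 14.7% and 4.33% of all loci. The heso1 triple had 401 higher and 94 lower members in the authors' deposited table, or 22.3% and 5.22% beside 28.2% and 22.4% of all loci. Both shares of that triple are thus below those of all loci. The line rrp4urt1dcl2.B9 had 561 higher and 25 lower in the authors' deposited table, or 31.1% and 1.39% beside 21.9% and 5.18%. In rrp4urt1dcl2het 1634 members were higher and 26 lower in the authors' deposited table, which is 90.7% and 1.44% of members beside 41.2% and 19.4% of all loci. Of the 186 transposable element genes on the arms 46.8% were higher there in the authors' deposited table. Elsewhere the arms had 11.8% higher in rrp4-2, 10.8% in rrp4urt1dcl2.B9, 24.7% in the heso1 triple, 10.2% in ski2urt1dcl2.107 and 5.38% in ski2urt1dcl2.123 in the authors' deposited table, so their share was below that of the members in the first pair of these lines and above it in the last 3. The list itself owes much to rrp4urt1dcl2het, since 781 of the 886 members listed in a single line were listed in it alone. These 781 lower the share of members in every other line and raise it in rrp4urt1dcl2het. The like number over all loci was not counted, so shares above or below those of all loci partly reflect how members entered the list. Of all loci tested in a line, 3.45% were listed as higher in rrp4-2, 6.4% in the heso1 triple, 5.13% in rrp4urt1dcl2.B9 and 9.65% in rrp4urt1dcl2het. The listing is partial, so the shares called by the authors may be larger.

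Fewer members were listed in the ski2 lines. In ski2-5, 10 members were higher and 3 lower in the authors' deposited table (0.555% and 0.166%, beside 1.18% and 1.22% of all loci). The second allele ski2.2 had 105 higher and 2 lower in the authors' deposited table (5.83% and 0.111%, beside 2.16% and 0.672%), although it lists no locus with a mean count under 25.8 and fewer loci were tested there. In ski2urt1dcl2.107 136 members were higher and 31 lower in the authors' deposited table (7.55% and 1.72%, beside 6.33% and 5.43%), and in ski2urt1dcl2.123 72 were higher and 13 lower (4.00% and 0.721%, beside 3.67% and 3.11%). The shares of higher members in the last pair of lines are close to those of all loci.

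The nucleotidyl transferase mutants listed few members. In urt1-1, 10 were higher and 2 lower in the authors' deposited table (background 1.46% and 0.504% of all loci), and in urt1.2 7 were higher and 1 lower (background 0.692% and 0.477%). GKheso1 had 1 higher and 4 lower in the authors' deposited table (background 0.658% and 0.813%). No member was listed in heso1.3 in the authors' deposited table, where 0.43% and 0.49% of all loci were higher and lower. The double mutant heso1-4/urt1-1 had 4 higher and 7 lower members in the authors' deposited table (background 1.59% and 1.13%).

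The rises were of modest size. The median log2 fold change of the higher members in the authors' deposited table was 0.70 in rrp4-2, 0.70 in rrp4urt1dcl2.B9, 0.88 in rrp4urt1dcl2het and 0.59 in ski2.2, beside 1.01, 1.04, 0.96 and 0.62 over all higher loci. It was 0.86 in the heso1 triple. A log2 value of 1 or more was reached by 17 members in rrp4-2, 145 in the heso1 triple, 57 in rrp4urt1dcl2.B9 and 577 in rrp4urt1dcl2het in the authors' deposited table. The share of all loci that reached it was not counted. At any size, 2191, 4202, 3263 and 6136 of all loci were higher in these lines. The median SE of the listed members was 0.16 in rrp4-2, 0.20 in the heso1 triple, 0.17 in rrp4urt1dcl2.B9 and 0.18 in rrp4urt1dcl2het. The chart of member counts by line shows these differences.

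**Figure D1:**
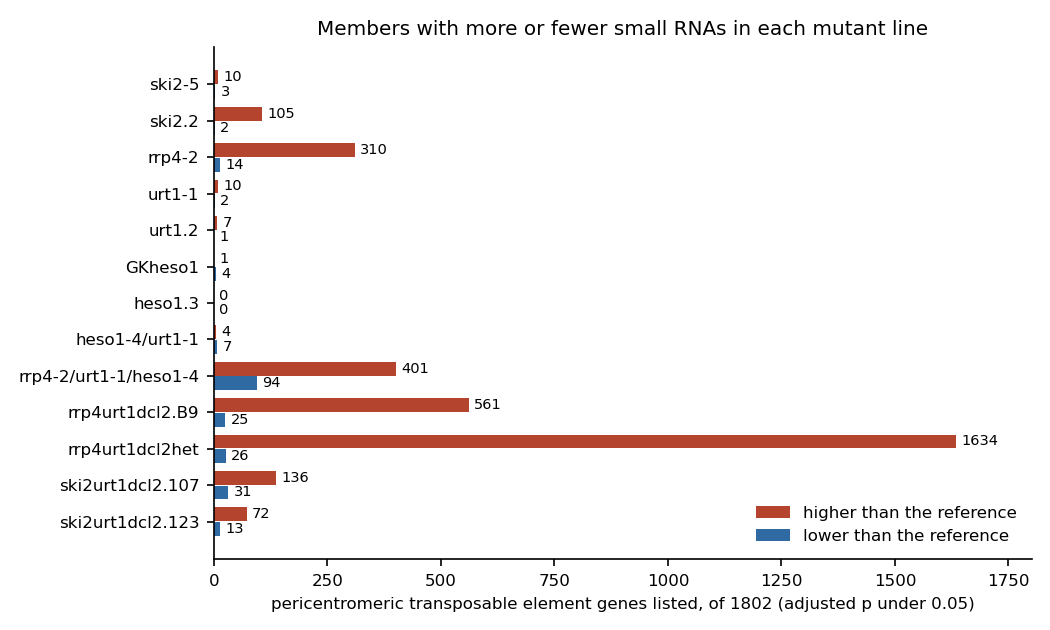
Number of pericentromeric transposable element genes, of 1802, listed as higher (red) or lower (blue) than the reference in each of the 13 lines at an adjusted p under 0.05. The bar of rrp4urt1dcl2het, at 1634 higher, is followed by rrp4urt1dcl2.B9 at 561, the heso1 triple at 401 and rrp4-2 at 310, while the urt1 and heso1 lines have 10 or fewer.

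The most recurrent member was SADHU3-2, a Sadhu retrotransposon that RefSeq notes as methylated and silenced in some natural accessions. It was listed in 10 of the 13 lines, always higher. Its log2 fold change in the authors' deposited table was 2.76 ± 0.22 (SE) in rrp4urt1dcl2.B9, 2.30 ± 0.22 in rrp4urt1dcl2het, 1.55 ± 0.23 in rrp4-2 and 0.74 ± 0.26 in the heso1 triple. The ski2 lines gave 1.45 ± 0.24 in ski2.2, 0.94 ± 0.25 in ski2-5, 1.27 ± 0.26 in ski2urt1dcl2.107 and 0.83 ± 0.25 in ski2urt1dcl2.123 in the authors' deposited table. In the urt1 alleles it was higher by 1.02 ± 0.24 in urt1-1 and 1.18 ± 0.25 in urt1.2 in the authors' deposited table. It was not listed in GKheso1, heso1.3 or heso1-4/urt1-1.

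SADHU2-1 was listed in the 8 lines that carry an rrp4 or a ski2 mutation. Its log2 fold change in the authors' deposited table was 3.32 to 3.55 in the 4 lines with an rrp4 mutation, 1.74 ± 0.35 (SE) in ski2-5, 1.87 ± 0.35 in ski2.2, 2.41 ± 0.36 in ski2urt1dcl2.107 and 2.56 ± 0.33 in ski2urt1dcl2.123. The other Sadhu members were listed in few lines. SADHU4-1 was higher by 1.42 ± 0.35 in rrp4-2, 1.42 ± 0.35 in rrp4urt1dcl2.B9 and 1.68 ± 0.36 in the heso1 triple in the authors' deposited table. The heso1 triple alone listed SADHU1-1 at 0.76 ± 0.23, SADHU1-3 at 0.72 ± 0.16 and SADHU9-1 at -0.91 ± 0.22, and ski2urt1dcl2.107 alone listed SADHU3-1 at 0.72 ± 0.21 in the authors' deposited table. These 7 members are the ones RefSeq names Sadhu, and the set was picked after their values had been seen.

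AT4G03824, a gene on chromosome 4 whose words all occur once in the genome, had the largest rises among the recurrent members. In the authors' deposited table it was higher by 4.48 ± 0.47 (SE) in rrp4urt1dcl2het, 4.26 ± 0.47 in rrp4-2 and 3.09 ± 0.48 in rrp4urt1dcl2.B9, but by 1.53 ± 0.51 in the heso1 triple. It was also higher by 2.03 ± 0.49 in urt1-1, 2.30 ± 0.49 in ski2.2, 2.78 ± 0.52 in ski2urt1dcl2.107 and 2.34 ± 0.49 in ski2urt1dcl2.123 in the authors' deposited table. AT1G35115, which starts 1039 bases beyond SADHU2-1, was higher by 3.72 ± 0.26 in rrp4-2 and by 2.22 to 2.35 in the other 3 lines with an rrp4 mutation in the authors' deposited table. No ski2 line listed it. AT2G15650 was higher in the same 4 lines in the authors' deposited table, by 3.44 ± 0.26 in rrp4-2, 2.48 ± 0.26 in the heso1 triple, 1.95 ± 0.26 in rrp4urt1dcl2het and 1.59 ± 0.27 in rrp4urt1dcl2.B9.

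On chromosome 4 (RefSeq TAIR10.1), AT4G06567 (3509751 to 3511385), AT4G06568 (3512136 to 3513542) and AT4G06571 (3527427 to 3529997) lie close together, the first pair 750 bases apart, and share no sequence that joins them. AT4G06568 was listed in 9 lines in the authors' deposited table, from 0.92 ± 0.24 (SE) in heso1-4/urt1-1 to 2.28 ± 0.24 in rrp4urt1dcl2het. AT4G06571 was listed in 8 lines in the authors' deposited table, from 0.38 ± 0.12 in rrp4urt1dcl2.B9 to 1.43 ± 0.12 in rrp4urt1dcl2het. AT4G06567 was listed in 6 lines in the authors' deposited table, from 0.77 ± 0.22 in ski2urt1dcl2.107 to 1.89 ± 0.20 in rrp4urt1dcl2het. All 3 genes stood highest in rrp4urt1dcl2het and next in the heso1 triple, at 1.49, 1.09 and 1.55 for AT4G06568, AT4G06571 and AT4G06567 in the authors' deposited table. AT3G42783 behaved more evenly, with 9 lines between 0.65 ± 0.17 in the heso1 triple and 1.17 ± 0.18 in ski2urt1dcl2.107 in the authors' deposited table. AT4G06642 lay between 0.65 and 1.33 in 8 lines and AT4G03750, also in 8 lines, from 0.55 in rrp4-2 to 1.1 in rrp4urt1dcl2het in the authors' deposited table.

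**Figure D2:**
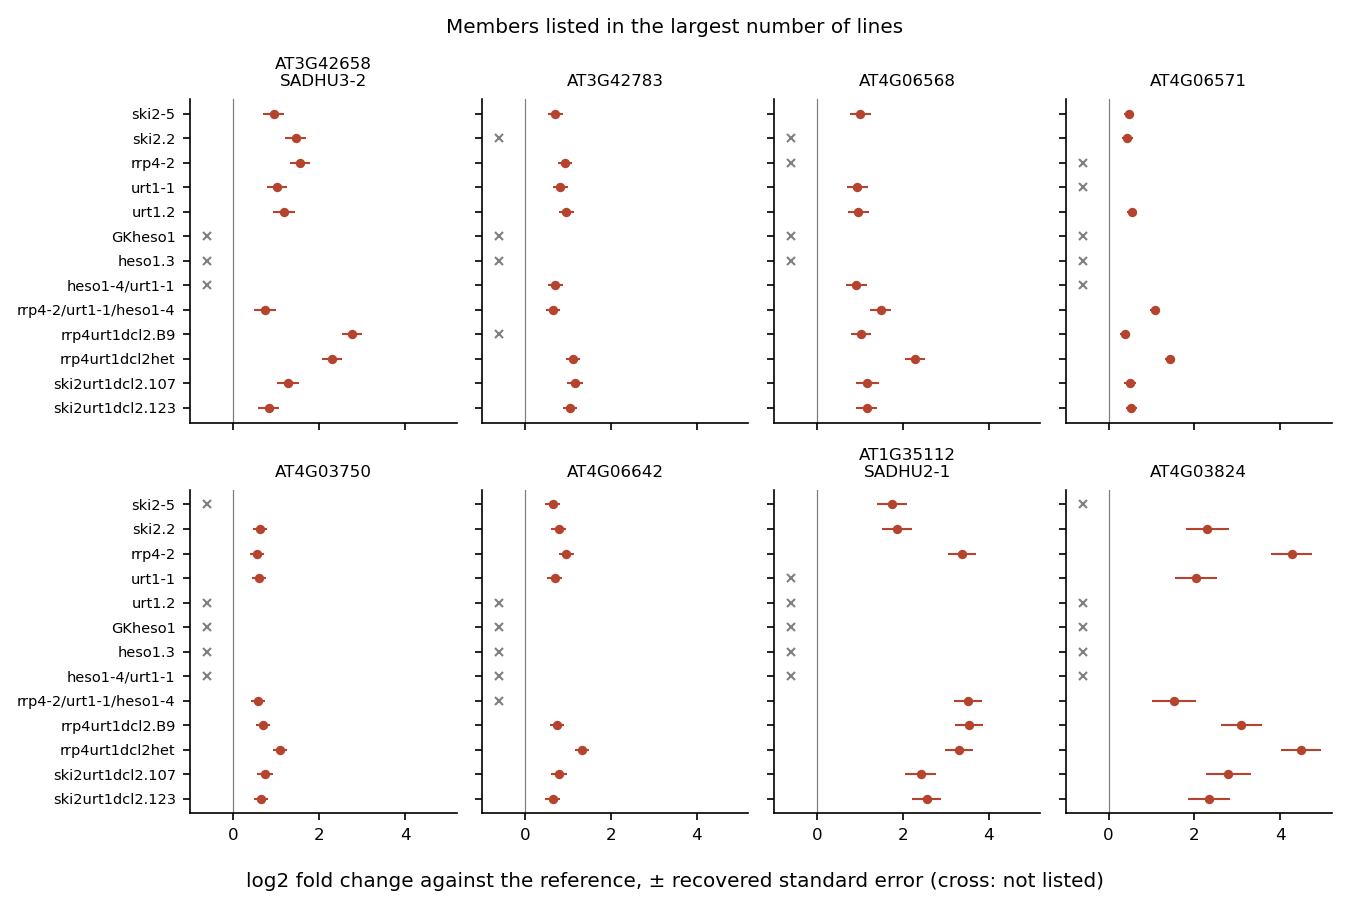
Log2 fold change against the reference (x axis) of the 8 members listed in the most lines, 1 panel per gene, with the 13 lines on the y axis. Points are values of the authors' deposited table, bars the recovered standard error and crosses lines in which the gene is not listed; SADHU2-1 lies at 3.32 to 3.55 in the 4 rrp4 lines, and all listed values in these panels are above 0.

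The members with the most small RNA had fold changes of modest size. The 5 largest mean normalised counts in the authors' deposited table were those of AT3G43730 (4405), AT5G29975 (4156), AT5G28263 (3766), AT3G30695 (3080) and AT5G31719 (2983), which are 1454, 704, 248, 508 and 1008 per kilobase. AT3G43730 was listed in rrp4urt1dcl2het alone, at 0.55 ± 0.13 (SE) in the authors' deposited table. The other 4 were higher in rrp4-2 (0.64 to 0.85), rrp4urt1dcl2.B9 (0.49 to 0.85), rrp4urt1dcl2het (0.64 to 0.99) and ski2urt1dcl2.107 (0.53 to 0.64) in the authors' deposited table, and none of the 5 was listed in the heso1 triple.

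Calls were also counted by sequence family, whose copies can share reads, so like values within a family are not separate measurements. The largest, the 87 copies of the AT1G36400 family (median 642 bases, on all 5 chromosomes), had all 87 members higher in rrp4urt1dcl2het (90.7% of all members were) with a median log2 fold change of 1.29 in the authors' deposited table. In the heso1 triple 56 were higher (median 0.99), in rrp4urt1dcl2.B9 49 (0.82), in rrp4-2 33 (0.79), in ski2urt1dcl2.107 8 (0.96) and in ski2.2 3 (0.78), with no member lower in any line of the authors' deposited table. The 76 members outside the family that hold the inverted repeat were higher in 75 cases in rrp4urt1dcl2het, 44 in rrp4urt1dcl2.B9, 35 in rrp4-2 and 27 in the heso1 triple in the authors' deposited table. Of all members, 90.7%, 31.1%, 17.2% and 22.3% were higher in these lines, and the part of the repeat was not tested.

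Other families were listed in rrp4-2 and in the dcl2 lines but hardly in the heso1 triple. All 29 members of the AT1G37160 family were higher in rrp4-2 (median 0.80), rrp4urt1dcl2.B9 (0.91) and rrp4urt1dcl2het (1.13) in the authors' deposited table, and 23 were higher in ski2.2 (0.57). The heso1 triple listed 2 of the 29, at 0.55 and 0.59 in the authors' deposited table. Among the 20 members of the AT2G06250 family, 19 were higher in rrp4-2 (median 0.88), 19 in rrp4urt1dcl2.B9 (0.89), 20 in rrp4urt1dcl2het (0.88 to 1.21) and 19 in ski2.2 (median 0.65) in the authors' deposited table. The heso1 triple listed none of them. Had the listing been complete, a log2 fold change over 0.47 would have been called there for the median member of this family, so a rise as large as in rrp4-2 would have been listed, but the listing is partial and the difference between the lines was not tested. Of the 27 members of the AT1G37669 family 25 were higher in rrp4-2 (median 0.61), 27 in rrp4urt1dcl2.B9 (0.67) and 27 in rrp4urt1dcl2het (0.83) in the authors' deposited table. The heso1 triple listed none of these 27. The 9 members of the AT1G40310 family, at a median of 973 counts per kilobase the most abundant of the 21 families, were all higher in rrp4-2 (0.81), rrp4urt1dcl2.B9 (0.89) and rrp4urt1dcl2het (1.03) in the authors' deposited table, and none was listed in the heso1 triple.

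The reverse also occurred. All 8 members of the AT1G32505 family were higher in the heso1 triple (median 0.52) and in rrp4urt1dcl2het (1.07) in the authors' deposited table. None of them was listed in rrp4-2 or rrp4urt1dcl2.B9. Of the 13 members of the AT1G39990 family, 8 were higher in the heso1 triple (0.59), 11 in rrp4urt1dcl2.B9 (0.63), 13 in rrp4urt1dcl2het (1.21) and 0 in rrp4-2 in the authors' deposited table. In the AT1G37070 family 18 of 29 members were higher in rrp4urt1dcl2.B9 (0.59) and 29 in rrp4urt1dcl2het (0.97) in the authors' deposited table. No member of it was listed in any of the other lines. In 20 of the 21 families, every member was higher in rrp4urt1dcl2het, and the exception was the AT2G05870 family with 1 of 8. Of all members 90.7% were higher in that line and 781 were listed in it alone, so a full family there does not set a family apart.

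**Figure D3:**
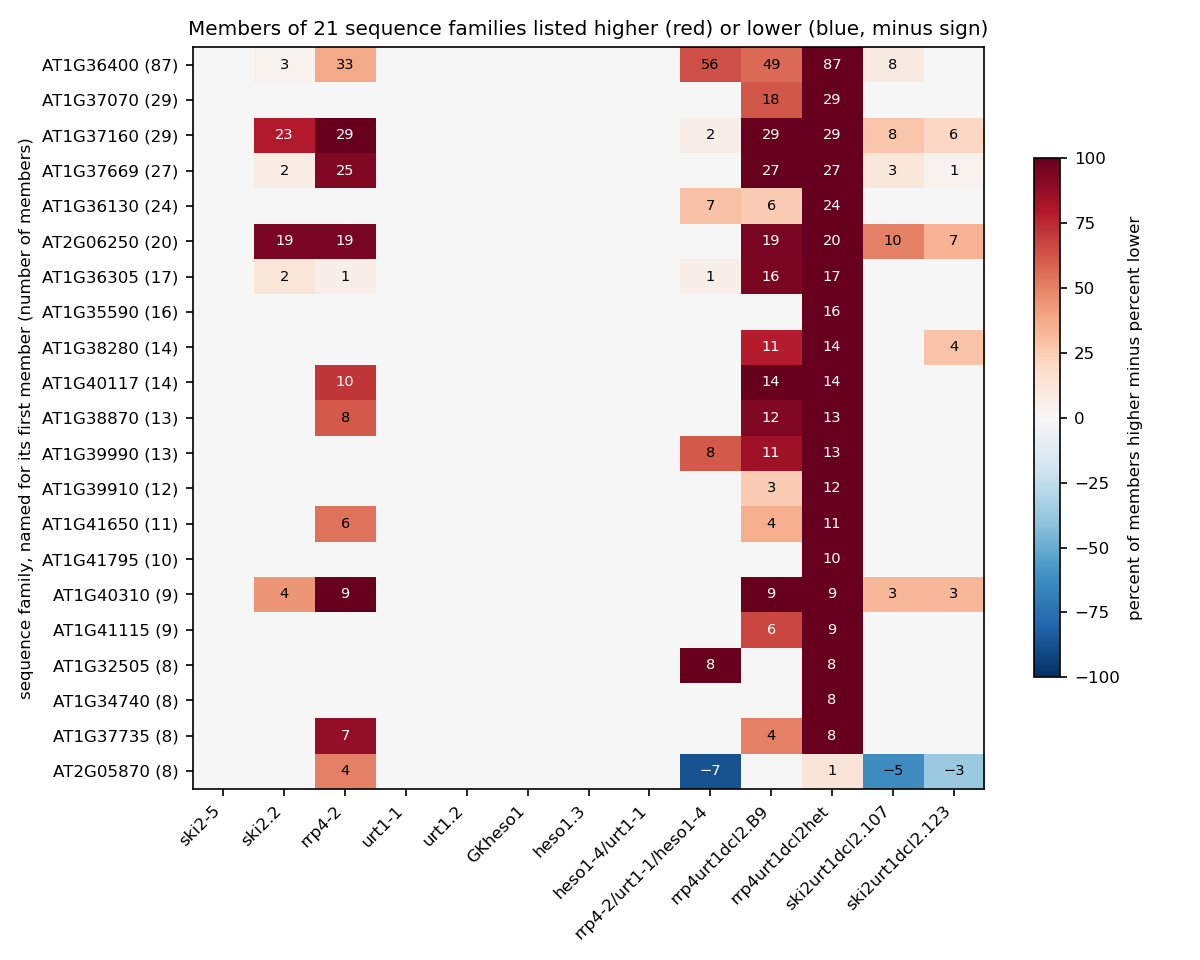
Number of members listed as higher (red) or lower (blue, minus sign) in each line (x axis) for the 21 sequence families of 8 or more members (y axis, family size in brackets), with the colour giving the percent higher minus the percent lower. The AT1G37160, AT1G37669, AT2G06250 and AT1G40310 families are red in rrp4-2 and pale in the heso1 triple, and the AT2G05870 family is blue in the heso1 triple with 7 of 8 lower.

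The AT2G05870 family stood apart by its falls. Its 8 members, with a median GC content of 31.4%, had 7 lower in the heso1 triple, from -1.60 to -0.77 with a median of -1.47 in the authors' deposited table. In rrp4-2, 4 of them were higher, at 0.49 to 0.52 in the authors' deposited table. Of the 8, 5 were lower in ski2urt1dcl2.107 (median -0.79) and 3 in ski2urt1dcl2.123 (-0.58) in the authors' deposited table. AT2G05870 itself was at 0.52 ± 0.15 (SE) in rrp4-2, -1.53 ± 0.16 in the heso1 triple, -0.76 ± 0.17 in ski2urt1dcl2.107 and -0.56 ± 0.16 in ski2urt1dcl2.123 in the authors' deposited table. AT4G07031, the member with 2319 counts per kilobase, had 0.51 ± 0.16, -1.60 ± 0.17, -0.87 ± 0.18 and -0.61 ± 0.16 in the same lines of the authors' deposited table.

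The 94 members that fell in the heso1 triple were mostly AT-rich genes with sequence of their own. Their median GC content was 36.4% and a median of 81.2% of their words occurred once in the genome, beside 41.8% and 56.7% for the 401 members that rose there. Members were ranked by GC content into 4 groups of like size. Of the 451 in the lowest group (up to 39.7%), 73 fell and 112 rose in the authors' deposited table, whereas of the 451 in the highest group (from 45.9%) 0 fell and 88 rose. In ski2.2 the 105 higher members lay at the other end, with 74 in the highest group and 3 in the lowest in the authors' deposited table. Of these 105, 53 belong to families of 8 or more copies that can share reads, so they are not independent. The AT1G37160 family gave 23 and the AT2G06250 family 19, with median GC contents of 47.4% and 49.5%. Members that rose in ski2.2 also had a high mean count (median 794, beside 131 for members not listed). Among members at or above the median count, 67 of 251 in the highest GC group and 1 of 197 in the lowest were higher in ski2.2 in the authors' deposited table. These are descriptions of the listed members with no test, and the part of GC content or abundance in them was not tested.

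**Figure D4:**
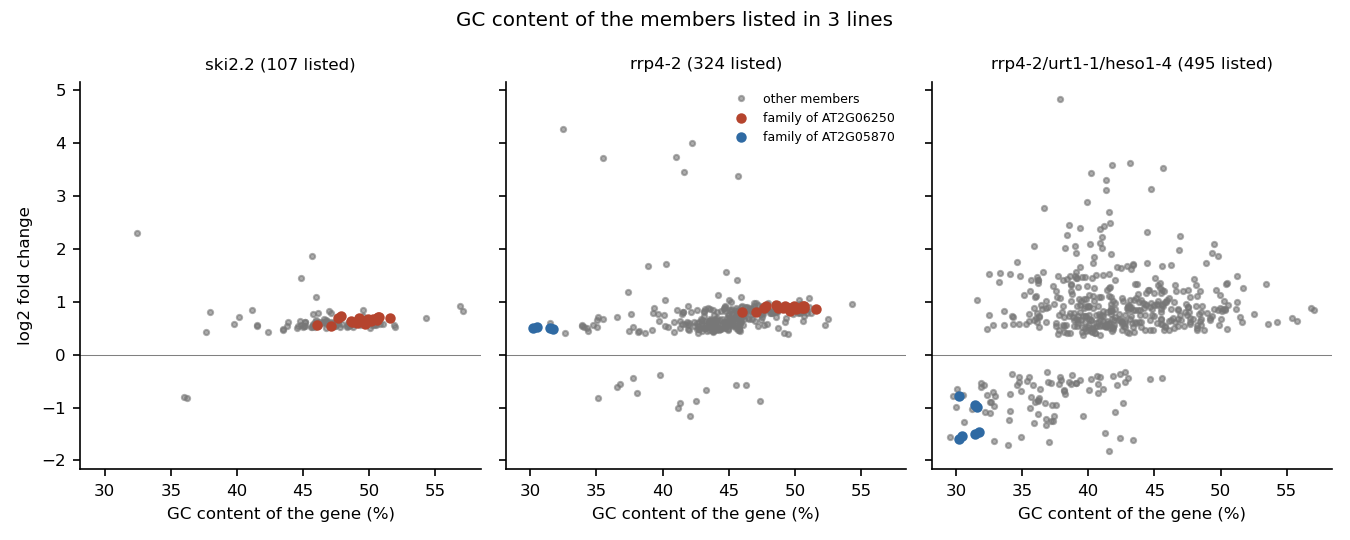
GC content of the gene (x axis, percent) against log2 fold change (y axis) for the members listed in ski2.2 (107), rrp4-2 (324) and the heso1 triple (495), 1 point per gene, with the AT2G06250 family in red and the AT2G05870 family in blue. Members that fell in the heso1 triple lie mostly at low GC content, and those that rose in ski2.2 mostly at high GC content. Of the 105 that rose in ski2.2, 53 belong to families of 8 or more copies and are not independent points.

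The deepest falls in the heso1 triple were those of AT5G39205, at -1.83 ± 0.20 (SE), AT1G43897, at -1.71 ± 0.18, and AT1G35663, at -1.65 ± 0.20, in the authors' deposited table. AT1G43897 was also lower in ski2urt1dcl2.107 at -0.90 ± 0.19, and AT1G35663 was lower in ski2urt1dcl2.107 and ski2urt1dcl2.123 at -1.33 ± 0.22 and -0.77 ± 0.19 in the authors' deposited table. In ski2-5 the 3 lower members were AT3G29525, at -2.18 ± 0.34, AT3G29540, at -1.86 ± 0.33, and AT1G35480, at -1.22 ± 0.18, in the authors' deposited table. The first pair are neighbours on chromosome 3 (RefSeq TAIR10.1, 11353722 to 11354141 and 11354327 to 11354735), 185 bases apart on opposite strands, and 94.4% identical over 410 bases, so they can share reads. Both were also lower in rrp4urt1dcl2.B9 (-1.32 and -1.02), rrp4urt1dcl2het (-1.19 and -1.10), the heso1 triple (-1.12 and -1.15) and ski2urt1dcl2.107 (-1.65 and -1.74) in the authors' deposited table. They were listed as higher in no line.

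Few members were listed in the heso1 lines without an rrp4 mutation. In GKheso1, AT5G27500 was at -1.47 ± 0.34 (SE), AT3G29153 at -0.82 ± 0.17, AT2G14430 at -0.75 ± 0.20, AT5G36226 at -0.56 ± 0.15 and AT5G32122 at 1.26 ± 0.34 in the authors' deposited table. In heso1-4/urt1-1 the lowest were AT4G08953 at -2.91 ± 0.61, AT5G27500 at -1.95 ± 0.33 and AT1G42630 at -1.60 ± 0.27, and the highest AT2G14280 at 3.41 ± 0.94, AT5G37175 at 1.39 ± 0.32 and AT4G06568 at 0.92 ± 0.24 in the authors' deposited table. AT2G14280 had the largest rise of any member in the heso1 triple, 4.83 ± 0.94, on a mean count of 23.1 in the authors' deposited table. In the urt1 alleles the lower members were AT5G35914 and AT5G27250, copies of each other, at -0.74 ± 0.19 and -0.70 ± 0.19 in urt1-1, and AT1G44707, at -1.35 ± 0.29 in urt1.2, in the authors' deposited table. The largest rises in urt1.2 were those of AT3G42680, at 2.25 ± 0.34, and AT5G27845, at 2.08 ± 0.45, in the authors' deposited table.

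Whether lines differed from each other was tested at loci listed in both lines of 19 pairs, using a z test (two-sided) for unequal log2 fold changes with Benjamini-Hochberg adjustment over all such loci. A member listed in only 1 line of a pair could not enter, however different its values. The counts below thus do not measure how far the lines differ over all members. Between the heso1 triple and rrp4-2, of 79 members listed in both lines 13 differed (16.5%, beside 18.9% of all loci), 4 higher and 9 lower in the heso1 triple. Among the 9 were all 4 members of the AT2G05870 family listed in both lines, with AT2G05870 lower by -2.05 ± 0.22 (SE, adjusted p = 1.5e-18 by the z test across loci) and AT4G07031 by -2.10 ± 0.23 (adjusted p = 1.19e-17). AT4G03824 differed by -2.73 ± 0.70 (adjusted p = 0.000775) and AT1G35115 by -1.51 ± 0.38 (adjusted p = 0.00062). The 4 that were higher in the heso1 triple were AT3G42645, by 1.24 ± 0.20 (adjusted p = 1.59e-08), and 3 members of the AT1G36400 family, AT2G09953, AT2G09900 and AT2G13400, by 0.90 to 1.18. SADHU2-1 was at 3.37 in rrp4-2 and 3.53 in the heso1 triple in the authors' deposited table and did not pass the test.

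**Figure D5:**
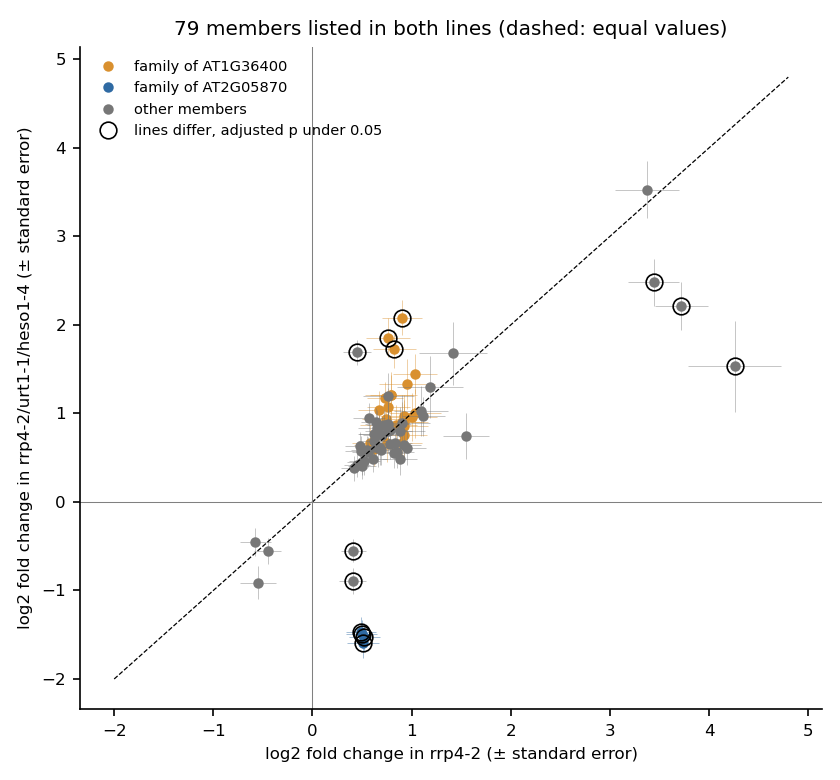
Log2 fold change in rrp4-2 (x axis) and in rrp4-2/urt1-1/heso1-4 (y axis) of the 79 members listed in both, with recovered standard errors as bars, family colours and a dashed line of equal values. Circles mark the 13 members that differed, among them the blue AT2G05870 family below 0 on the y axis and 3 members of the orange AT1G36400 family above the line.

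In rrp4urt1dcl2.B9, 3 of 272 shared members differed from rrp4-2, where 3.1% of all loci did, with SADHU3-2 higher by 1.21 ± 0.32 (SE, adjusted p = 0.00666 by the z test across loci) and AT2G15650 and AT1G35115 lower by -1.86 ± 0.37 and -1.51 ± 0.38. In rrp4urt1dcl2het 10 of 311 differed (3.22%, beside 5.23%), 8 higher and 2 lower. With an assumed correlation of 0.5 between the lines, which the shared reference makes possible, 50 differed, 48 of them higher. The share of all shared loci was not computed at that setting, so the 50 cannot be set beside 5.23%. The median difference of the members was 0.27, beside 0.06 over all shared loci.

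The lines rrp4urt1dcl2het and rrp4urt1dcl2.B9, named for the same genes, differed in 1 direction. Of 567 members listed in both, with a median difference of 0.29 beside 0.13 over all shared loci, 31 passed the test (5.47%, beside 6.54% of all loci), all higher in rrp4urt1dcl2het. With an assumed correlation of 0.5, 103 passed, all in that direction, with no share of all shared loci computed at that setting. The directions were not counted over all shared loci at either setting. AT3G29787 was at 3.61 ± 0.36 (SE) in rrp4urt1dcl2het and 1.48 ± 0.38 in rrp4urt1dcl2.B9 in the authors' deposited table, a difference of 2.13 ± 0.52 (adjusted p = 0.00119 by the z test across loci). AT1G42697 and AT3G33148 differed by 1.84 ± 0.43 and 1.70 ± 0.39 in the same direction. AT2G04460 was listed in opposite directions, at 0.40 ± 0.15 in rrp4urt1dcl2het and -0.52 ± 0.16 in rrp4urt1dcl2.B9 in the authors' deposited table.

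The next pairs carry a heso1 or a dcl2 mutation beside those in rrp4 and urt1. Between the heso1 triple and rrp4urt1dcl2.B9, 21 of 164 members differed (12.8%, beside 9.64%), 19 of them higher in the heso1 triple, among them AT3G29787 by 1.95 ± 0.52 (SE), AT4G07452 by 1.74 ± 0.61 and AT3G30645 by 1.66 ± 0.51. SADHU3-2 was lower there by -2.02 ± 0.34 and AT5G37442 by -0.95 ± 0.25. Between the heso1 triple and rrp4urt1dcl2het, 27 of 397 differed (6.80%, beside 11.6%), 26 of them lower in the heso1 triple, with AT4G03824 at -2.95 ± 0.70, SADHU3-2 at -1.56 ± 0.34 and AT5G35800 at -1.44 ± 0.27, and AT4G07507 higher by 0.91 ± 0.29. An assumed correlation of 0.5 raised that count to 108, with no share of all shared loci computed at that setting.

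Few members were listed both in a triple and in urt1-1 or heso1-4/urt1-1, so few could be compared. Between the heso1 triple and heso1-4/urt1-1, 2 of 8 members differed (25.3% of all loci did), both listed in opposite directions. AT5G27500 was at 2.05 ± 0.22 (SE) in the heso1 triple and -1.95 ± 0.33 in the double mutant in the authors' deposited table, a difference of 3.99 ± 0.40 (adjusted p = 3.18e-22 by the z test across loci). AT1G44707 was at 1.07 ± 0.25 and -1.06 ± 0.27 in the authors' deposited table, and differed too (adjusted p = 1.12e-07 by the same test). Against urt1-1, 1 of 9 members differed in the heso1 triple (29.8% of all loci), AT3G42645 by 1.15 ± 0.20, 1 of 6 in rrp4urt1dcl2.B9 (10.8%), SADHU3-2 by 1.74 ± 0.33, and 6 of 9 in rrp4urt1dcl2het (24.6%), from 0.63 to 2.45 higher. Neither of 2 members differed between heso1-4/urt1-1 and urt1-1 (3.15% of all loci).

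Between the ski2 lines and between further alleles, the z test called few members or none. In ski2urt1dcl2.107 and ski2urt1dcl2.123, 0 of 10 and 0 of 6 members differed from ski2-5 (5.26% and 6.72% of all loci), and 0 of 58 differed between these lines (0.495%). Against rrp4urt1dcl2.B9, 2 of 87 and 3 of 64 were lower (20.4% and 21% of all loci), with AT2G09810 lower by -2.97 ± 0.48 (SE) and -1.92 ± 0.37 and SADHU3-2 by -1.49 ± 0.35 and -1.94 ± 0.33. Few members could be compared between alleles, with 0 of 4 differing between ski2-5 and ski2.2 (0% of all loci), 0 of 3 between urt1-1 and urt1.2 (0%), and none listed in both heso1.3 and GKheso1 (8.89% of all loci). At the 4 members in both ski2 lines the median SE of the difference was 0.30, so differences of that order, and somewhat larger ones, were not detectable there.

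Genes of the silencing pathway were looked up in the same table, as small RNA from the genes themselves and not as mRNA. Of 46 genes for the siRNA polymerases, Dicers, Argonautes and methylation enzymes, 0 were higher and 7 lower in rrp4urt1dcl2het in the authors' deposited table, where 4.54% of the loci tested and 19.4% of all listed loci were listed as lower. These were AGO4, which binds the siRNAs that guide methylation, at -0.61 ± 0.21 (SE), AGO5 at -0.66 ± 0.24, CLSY3, a polymerase IV partner, at -0.67 ± 0.21, CMT2, a methyltransferase of heterochromatin, at -0.72 ± 0.23, DCL2 at -0.77 ± 0.22, DRD1, a remodeller for polymerase V, at -0.82 ± 0.27, and KTF1 at -0.75 ± 0.22. DCL2 is one of the genes that rrp4urt1dcl2het is named for. The 46 genes were taken whether listed or not, unlike the loci behind the 19.4%, and whether 7 exceeds their share was not tested. None of the 46 genes was listed in rrp4-2, the urt1 alleles or the heso1 alleles. AGO1 was higher in ski2-5 (1.50), ski2.2 (1.13), ski2urt1dcl2.107 (2.00), ski2urt1dcl2.123 (1.85) and rrp4urt1dcl2.B9 (0.62) in the authors' deposited table. ROS1, a DNA demethylase, was lower in ski2.2 (-0.56), ski2urt1dcl2.107 (-0.61) and the heso1 triple (-0.39) in the authors' deposited table. Beyond these, AGO3 was higher in heso1-4/urt1-1 (1.24), AGO7 in ski2urt1dcl2.107 (1.06), and AGO5 lower in the heso1 triple (-0.74) in the authors' deposited table.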

How the data were processed

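The labels describe 24 small RNA libraries of inflorescences made by the authors, and they do not name every line. Per the submitters' processing notes the tools were STAR 2.6.0a, cutadapt 2.4, DESeq2 and featureCounts (Subread 1.6.3), and the build TAIR10, with neither order nor settings given. The signal deposited by the authors is a mean normalised count per locus. Deposited log2 fold changes are those of the authors' DESeq2 comparisons. The p-value and adjusted p-value of each entry were deposited by the authors. The table used here lists only called entries (28194 entries, 14888 loci), so no library could be left out and no spread between libraries seen.

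Standard errors were computed as the fold change over the normal quantile of p; 4 entries with p written as 0 took the median error of the locus. The number of loci tested per line was worked out from each adjusted p divided by its p, with a search range changed after its first output. Pairs of lines were compared by z tests with Benjamini-Hochberg adjustment across all loci listed in both. Sequences came from RefSeq TAIR10.1; copies were found with BLASTN 2.17.0 (e-value 1e-20). The z test and the recovery of tested numbers were also tested on simulated data with known answers. Detection limits used the largest listed p of a line. Alternatives were adjusted p under 0.01, a log2 change of at least 1, a mean count of at least 50, narrower and wider regions, a correlation of 0.5, median errors and, added after seeing the data, other family rules.

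The members and lists were chosen with earlier results of these data known. Members were named as the 3 highest and 3 lowest in each line with at least 5 listed, all in other lines, the 5 largest counts, the 8 listed in most lines, the 3 largest differences each way in a pair, and those opposite in alleles. Chosen after values were seen were the family rule, the families described (one of several rules tried was kept), the Sadhu set, neighbours, AT1G40310, AT1G32505 and AT1G39990, AT2G13400, the GC groups, the repeat and the printed sequences. Element classes could not be counted, since neither the table nor the reference gives them.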

Additional observations from a re-analysis of the deposited data

Results flagged for a closer look

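The lines rrp4urt1dcl2het and rrp4urt1dcl2.B9, named for mutations of the same genes, differed by the z test at 31 of 567 shared members. That is 5.47%, a share not above the 6.54% of all shared loci. The 3 largest differences of the log2 fold changes at members were those of AT3G29787 (2.13), AT1G42697 (1.84) and AT3G33148 (1.70), each higher in rrp4urt1dcl2het. In the authors' deposited table the heso1 triple had 3.44, 2.76 and 2.26 at these genes. The labels do not say how the dcl2 alleles of the lines differ, and the part of the alleles in these differences was not tested.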

How the results depend on the processing

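No paired analysis was possible because the table holds no values of single libraries, and leaving out a replicate could not be run for the same reason. The sums of higher and lower members per line, and the counts that differed between lines, were within 1.5 times of those reported under each setting for which no other value follows. At an adjusted p under 0.01 the listed members were 8 in ski2-5, 15 in ski2.2, 203 in rrp4-2, 3 in urt1-1, 2 in GKheso1, 7 in heso1-4/urt1-1, 388 in rrp4urt1dcl2.B9, 61 in ski2urt1dcl2.107 and 27 in ski2urt1dcl2.123. With a log2 change of at least 1 they were 5 in ski2-5, 4 in ski2.2, 19 in rrp4-2, 2 in urt1-1, 4 in urt1.2, 2 in GKheso1, 7 in heso1-4/urt1-1, 174 in the heso1 triple, 60 in rrp4urt1dcl2.B9, 582 in rrp4urt1dcl2het, 28 in ski2urt1dcl2.107 and 13 in ski2urt1dcl2.123. The inner part of each window (0.5 of its span) left 6 in ski2-5, 4 in urt1-1, 3 in urt1.2, 2 in GKheso1, 6 in heso1-4/urt1-1, 281 in the heso1 triple and 1063 in rrp4urt1dcl2het. With all transposable element genes there were 8 in GKheso1 and 4 in heso1.3. The lean towards higher values was lost at a log2 change of at least 1 in ski2-5 (2 higher, 3 lower) and ski2urt1dcl2.123 (6 higher, 7 lower), and GKheso1 was even there and in the inner part (1 higher, 1 lower). Over these settings, lower members alone ran from 2 to 19 in rrp4-2, 29 to 142 in the heso1 triple and 3 to 57 in rrp4urt1dcl2.B9. They ran from 5 to 43 in rrp4urt1dcl2het, 12 to 40 in ski2urt1dcl2.107 and 7 to 16 in ski2urt1dcl2.123.

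With a correlation of 0.5 between lines, members that differed were 50 for rrp4urt1dcl2het against rrp4-2, 108 for the heso1 triple against rrp4urt1dcl2het, 103 for rrp4urt1dcl2het against rrp4urt1dcl2.B9, 2 for ski2urt1dcl2.107 against ski2-5, 4 against ski2urt1dcl2.123 and 8 against rrp4urt1dcl2.B9, and 15 for ski2urt1dcl2.123 against rrp4urt1dcl2.B9. The shares of all shared loci at that correlation were not computed. Median errors gave 2 for ski2urt1dcl2.107 against ski2urt1dcl2.123. At an adjusted p under 0.01 the counts were 5 for rrp4urt1dcl2het against rrp4-2, 12 for the heso1 triple against rrp4urt1dcl2.B9 and 16 against rrp4urt1dcl2het. At an adjusted p under 0.01, 70 values of named members no longer passed and 201 still did. In alternatives chosen after seeing the data, joining families at 90% identity left 25 members with AT1G36400 (72.0% higher in the heso1 triple), and joining at 75% over 70% gave 122 (53.3%), beside 64.4% as reported. Depth per library is unknown, so small changes of members with low counts may be missed.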

Other observations

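Some members were listed as higher in one line and lower in another, 24 of 1802. The same count over all 14888 loci was not made, so whether 24 is many or few is not known. AT1G44707, a gene of 74.0 mean normalised counts whose words nearly all occur once in the genome, was at 1.96 ± 0.24 (SE) in rrp4urt1dcl2het and 1.07 ± 0.25 in the heso1 triple but at -1.35 ± 0.29 in urt1.2, -1.06 ± 0.27 in heso1-4/urt1-1, -2.96 ± 0.43 in ski2urt1dcl2.107 and -1.43 ± 0.28 in ski2urt1dcl2.123 in the authors' deposited table. AT2G09810 was at 1.79 ± 0.22 in rrp4urt1dcl2het, 1.01 ± 0.24 in the heso1 triple and 0.78 ± 0.23 in rrp4urt1dcl2.B9, and at -2.19 ± 0.42 in ski2urt1dcl2.107 and -1.14 ± 0.29 in ski2urt1dcl2.123 in the authors' deposited table. AT5G27500 was lower in GKheso1 and heso1-4/urt1-1 and higher in rrp4urt1dcl2het, at 1.58 ± 0.22, and in the heso1 triple in the authors' deposited table.

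AT3G30610 had the lowest value of any member, -4.31 ± 0.80 (SE) in ski2urt1dcl2.107 on a mean count of 26.3, beside -1.26 ± 0.38 in ski2urt1dcl2.123 and -1.62 ± 0.40 in the heso1 triple in the authors' deposited table.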
